A study of Mus musculus with 6 samples.

Results

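Stroma sorted directly from mouse lymph nodes (LN) was compared with a pair of LN stromal cell lines that had not been stimulated. The comparison used 3 of the 6 arrays of the series. The first held cells sorted from enzyme-digested LN of adult C57BL/6JJcl mice by the presence of podoplanin and VCAM-1 and the absence of CD45, carried by blood cells, and CD31, carried by endothelium. The other 2 held BLS4 and BLS12, lines derived from adult LN of BALB/cA mice, grown without antibody in DMEM with 10% fetal calf serum and antibiotics. The same lines were also measured after 2 days with 1 µg/ml of an agonistic goat polyclonal antibody against LTβR, the lymphotoxin β receptor. Another array held cultured mouse embryonic fibroblasts (MEF) from C57BL/6JJcl embryos at mid-gestation, also grown with 10% fetal calf serum. The antibody-treated and MEF arrays appear here only as reference levels. Fresh stroma and the lines differed in strain, in culture, in enzymatic release and sorting, and in establishment as a line, and these factors cannot be told apart. The labels do not say which LN were taken, how many mice were pooled, or how the lines were derived. Of 19938 genes with a probe set of their own, 12827 reached the array median in at least 1 of the 3 arrays and were kept, and a difference was counted where it had the same direction against both lines.

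Reticular stromal cells build the scaffold of the LN and guide lymphocytes through it. In the T cell zone they secrete CCL19 and CCL21, in B cell follicles CXCL13, and they supply survival factors such as IL-7 and BAFF. Lymphotoxin from haematopoietic cells, acting through LTβR, is known to maintain much of this programme. Cultured stromal lines grow on plastic in serum, without lymphocytes.

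The array medians lay close together, at 55.8 intensity units in fresh stroma, 53.4 in BLS4 and 51.5 in BLS12. All levels below are log2 intensities, and a difference is the log2 level in fresh stroma minus that in a line, so that 1 unit is 2-fold and 2 units are 4-fold. Values written as 1 number against 2 are fresh stroma against BLS4 and BLS12, in that order. Levels were compared within a gene and not between genes. Fresh stroma had 1 array and each line 1, so fold rules lead and no difference had a replicate check. Over all kept genes, 7.03% were at least 2-fold higher and 4.25% at least 2-fold lower in fresh stroma against both lines. At 4-fold 524 genes (4.09%) were called in either direction, 3.52% higher and 0.569% lower. The gene lists read below were chosen with earlier results of these data known, so their counts describe the data and are not independent support.

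The markers of the sort gave the following levels. Pdpn, which encodes podoplanin, had log2 levels of 10.2 against 11 and 11.13, so it was lower in fresh stroma than in either line by less than 1 unit. Vcam1, the adhesion molecule used in the same gate, had 11.9 against 9.83 and 10.93 and was higher than in both lines. Ptprc, which encodes CD45, stood at 5.7 in fresh stroma, below the array median of 5.80, against 4.52 and 4.06 in the lines. Pecam1, which encodes CD31, had 6.44 against 5.08 and 4.88, so it lay above the array median in fresh stroma. Pdgfra, a receptor for platelet-derived growth factor on fibroblasts, was well expressed in all 3 arrays with 12.26 against 11.6 and 11.12, and Ltbr itself had 8.25 against 8.78 and 8.74.

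Markers of other cells that digested tissue could hold were also read. Of 9 lymphocyte markers with a probe set 2 were kept, and neither of these was 2-fold apart against both lines. Ptprc, also on this list, was below the median in all 3 arrays and not kept. Its level in fresh stroma was 2.26-fold that of the nearer line. The summed log2 intensity of the 9 was 8.58 in fresh stroma against 8.24 and 7.91. Of 9 myeloid markers 4 were kept and 1, Lyz2, was lower in fresh stroma, at 5.73 against 8.54 and 7.82 (summed 8.79 in fresh stroma against 9.52 and 8.97). All 8 markers of blood endothelium were kept and 3 were at least 2-fold higher, Emcn at 5.88 against 3.63 and 3.76, Tek at 8.18 against 5.75 and 6.61 and Pecam1, with a summed log2 intensity of 9.64 in fresh stroma against 8.54 and 8.58. None of 6 lymphatic endothelial markers reached an array median (summed 7.86 in fresh stroma against 7.67 and 7.48). Of 9 epithelial and mesothelial markers 8 were kept and none was 2-fold apart against both lines (summed 10.11 in fresh stroma against 9.1 and 11.58), and Epcam stood at 4.73 in fresh stroma. Their median difference was 0.83 log2 units from BLS4 and -0.05 from BLS12. The sum was highest in BLS12, so the rule against both lines could miss members higher than in BLS4. Single markers of other lists were higher: Ngfr of the Schwann cell list at 8.77 against 6.63 and 6.47, Plin1 of the adipocyte list at 7.83 against 5.87 and 5.58, and Jchain, the joining chain of secreted antibodies, at 7.92 against 3.5 and 3.47. Their lists summed to 9.33 in fresh stroma against 8.08 and 8.21, to 8.25 in fresh stroma against 7.07 and 6.93, and to 8.7 in fresh stroma against 7.15 and 7.16, and none of the 2 erythroid markers was 2-fold apart (7.24 in fresh stroma against 6.76 and 6.76).

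Transcripts of digestive enzymes stood high in the fresh array, and gene lists for them were drawn up after their values were seen. Of 20 measured exocrine pancreas genes 19 were kept and 18 were at least 2-fold higher in fresh stroma, 16 of them at least 4-fold. Cpb1, a carboxypeptidase of pancreatic juice, had log2 levels of 10.5 against 3.94 and 3.97, Cpa1, another carboxypeptidase, 10.98 against 5.2 and 5.08, and Ctrb1, chymotrypsinogen, 11.13 against 5.93 and 5.47. The list summed to 13.63 in fresh stroma against 9.68 and 9.48, and to 9.52 in MEF. Of 18 measured salivary gland genes 8 were kept and 5 were at least 4-fold higher, led by Bpifa2, the parotid secretory protein, at 11.84 against 4.49 and 4.41 and Amy1, salivary amylase, at 10.55 against 3.68 and 3.47 (summed 12.58 in fresh stroma against 8.99 and 8.87). Of 12 measured genes of antibody secretion and the B cell surface 7 were kept. All 7 lay above both lines, and 4 were at least 4-fold higher: Jchain, an immunoglobulin κ light chain segment, Cr2 and Cd72. These 4, like Cpb1, Cpa1, Bpifa2 and Amy1, were below the array median in both lines and kept only through the fresh array. Genes kept in this way had to lie above both lines. The list summed to 11.58 in fresh stroma against 9.96 and 10.32. Ms4a1, which encodes the B cell antigen CD20, stood at 4.88 and Cd79a at 4.78, both below the array median. The part that RNA of gland or plasma cells has in the other differences was not tested. Without the genes of these 3 lists 426 genes were 4-fold higher in fresh stroma in place of the 451 given next.

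At 4-fold and 2-fold more genes were higher in fresh stroma than lower, although at any size 3908 lay above both lines and 5597 below both. At least 4-fold higher against each line were 451 genes (3.52% of those kept), and at least 4-fold lower 73 (0.569%). At 2-fold the counts were 902 (7.03%) and 545 (4.25%), and at 16-fold 112 and 3. The median over all kept genes was -0.09 log2 units, and 74.1% of them differed in the same direction from both lines. In bulk RNA, fewer cells of a type and less RNA per cell cannot be told apart. A gene that entered only through the array where it was high had to differ: 547 genes lay below the median in both lines and 1023 below it in fresh stroma. Of the 451 genes 285 had a level below the array median in a line, so the size of these differences is approximate, as it is for 31 of the 73, which lay below the median in fresh stroma. The genes nearest the 4-fold limit differed by 2.002 and 1.993 log2 units on the higher side and by -2.001 and -1.996 on the lower side.

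**Figure D1:**
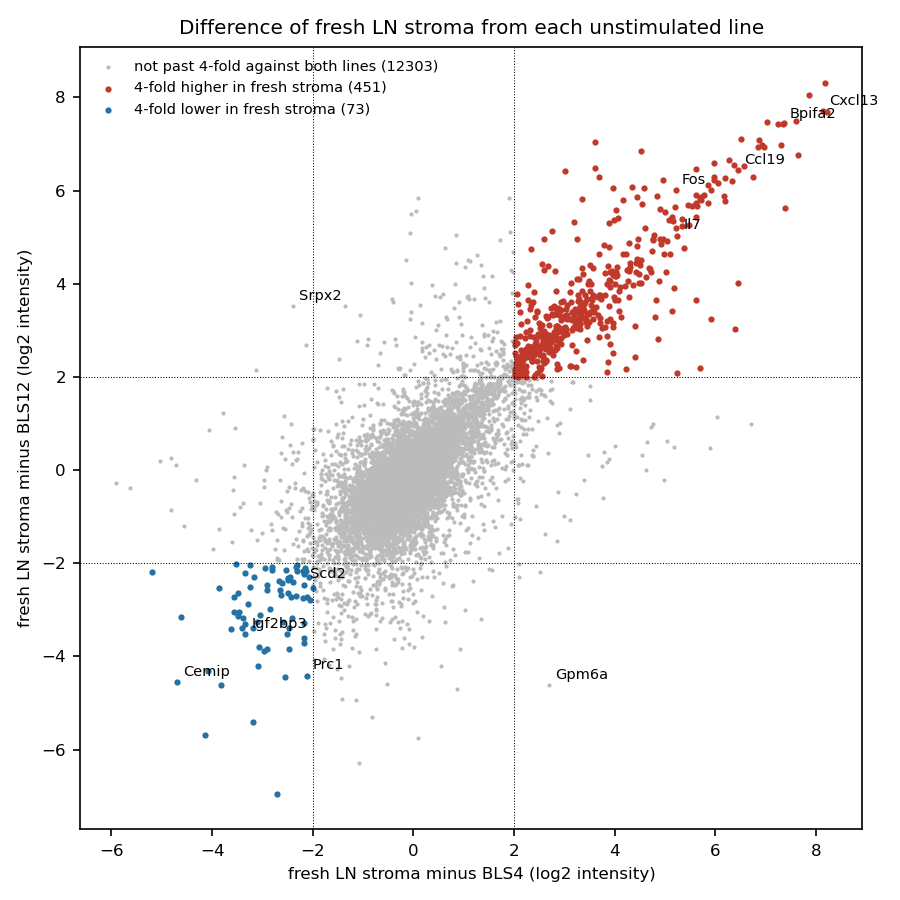
Each point is 1 of the 12827 kept genes, placed by the log2 difference of fresh LN stroma from BLS4 (x axis) and from BLS12 (y axis), with dotted lines at 4-fold. The 451 genes higher than in both lines run to over 8 log2 units, while the 73 lower genes are fewer and closer to the limit.

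A limma fit of the 3 arrays took the gap between BLS4 and BLS12 as its only residual degree of freedom and so assumed that the single fresh array varied like the lines. It called 0 of 12827 genes (0%) at an adjusted p of 0.05, with a lowest adjusted p = 0.0634, and 1588 genes (12.4%) had an unadjusted p under 0.05. On simulated data of this design the fit called none of the changed genes. How many of the genes that differed it could call in the 3 real arrays was not tested. On the same simulated data the fold rule found large changes, missed most smaller ones and also called genes that had not been changed. With all 6 arrays in the fit, 396 genes were higher and 53 lower at that threshold. Its 2 residual degrees of freedom are the gap between BLS4 and BLS12 taken once without and once with antibody, so they are not independent. The adjusted p is the limma value with Benjamini-Hochberg adjustment over all kept genes.

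Most of the 15 largest differences were in genes that lay below the array median in a line, and their sizes and order are approximate. Inmt, a methyltransferase of indoleamines, had log2 levels of 12.45 in fresh stroma, 4.27 in BLS4 and 4.13 in BLS12. Lepr, the leptin receptor, had 11.76 in fresh stroma, 3.91 in BLS4 and 3.7 in BLS12. Lum, the collagen-binding proteoglycan lumican, had 12.01 against 3.79 and 4.32. Fresh stroma was thus high and both lines were low in each of these. Next came C7, a component of the terminal complement pathway, at 11.65 against 4.04 and 4.16, and Dsc3, a desmosomal cadherin, at 11.54 against 4.16 and 4.08. Abca8a, a transporter of the ATP-binding cassette family, had 11.71 against 4.4 and 4.72, and Steap4, a metalloreductase, 12.67 against 5.02 and 5.92. The remaining members of the 15 largest were Cxcl13, Bpifa2, Cxcl10, Fosb, AW112010 (at 10.69 against 3.73 and 3.75), Rgs5, Amy1 and Abcc9. The MEF array lay far below fresh stroma in these 15 genes as well, with log2 levels from 3.44 for Amy1 to 6.62 for Rgs5. Of all 451 genes 366 were also at least 4-fold above MEF, a comparison that shares the fresh array.

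**Figure D2:**
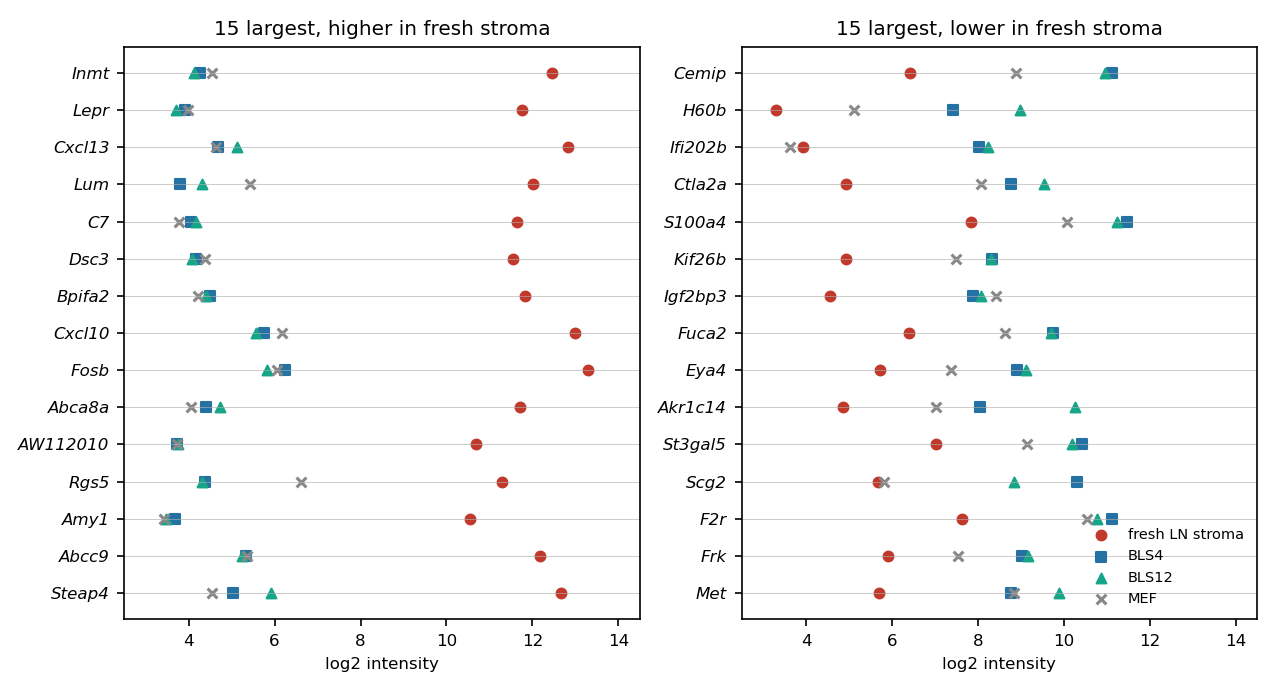
Log2 intensity (x axis) of the 15 genes with the largest difference from the nearer line in each direction (rows), in fresh LN stroma (circles), BLS4 (squares), BLS12 (triangles) and MEF (crosses), 1 array each. On the left the lines and MEF lie together below 7, while on the right MEF mostly lies nearer to the lines than to fresh stroma, Ifi202b, H60b and Scg2 being exceptions.

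The chemokines that position lymphocytes stood among the clearest differences. Cxcl13, the B cell follicle chemokine, had log2 levels of 12.82 in fresh stroma, 4.69 in BLS4 and 5.11 in BLS12, and both lines lay below the array median. Ccl19, a ligand of CCR7 on T cells and dendritic cells, had 12.49 in fresh stroma, 6.04 in BLS4 and 6.04 in BLS12, a 86.9-fold difference. After the LTβR antibody Cxcl13 stood at 4.77 and 6.14 and Ccl19 at 6.25 and 6.39 in BLS4 and BLS12, all below fresh stroma. In BLS12 the antibody array was about 1 log2 unit higher in Cxcl13 than the unstimulated one, and above its array median of 5.82. Cxcl12, the ligand of CXCR4, behaved otherwise: at 12.4 against 11.46 and 9.26 it was kept high in BLS4 and lay within 1 log2 unit of fresh stroma there. Of the 6 listed homeostatic chemokine genes 3 had a probe set of their own, and 2 of the 3 were 4-fold higher.

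Cytokines that stroma supplies to lymphocytes and myeloid cells were mostly higher in fresh stroma. In this list 26 of 29 measured members were kept, of which 15 were at least 2-fold higher and 0 at least 2-fold lower, with a median difference of 1.61 log2 units, and 11 were past 4-fold. Il7, the survival factor of naive T cells, had log2 levels of 9.13 against 3.89 and 4.1. Il6 had 11.94 against 7.41 and 5.08, and Il33, an alarmin held in stromal nuclei, 11.61 against 5.16 and 7.61, with BLS12 above BLS4. Ptn, the growth factor pleiotrophin, had 10.24 against 5.1 and 4.81, and MEF also expressed it, at 9.61. Further cytokines, chosen after their values were seen, were Tnfsf13b, which encodes BAFF, at 10.48 against 6.98 and 6.63, and Flt3l, a dendritic cell growth factor, at 9.68 against 6.09 and 6.29.

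**Figure D3:**
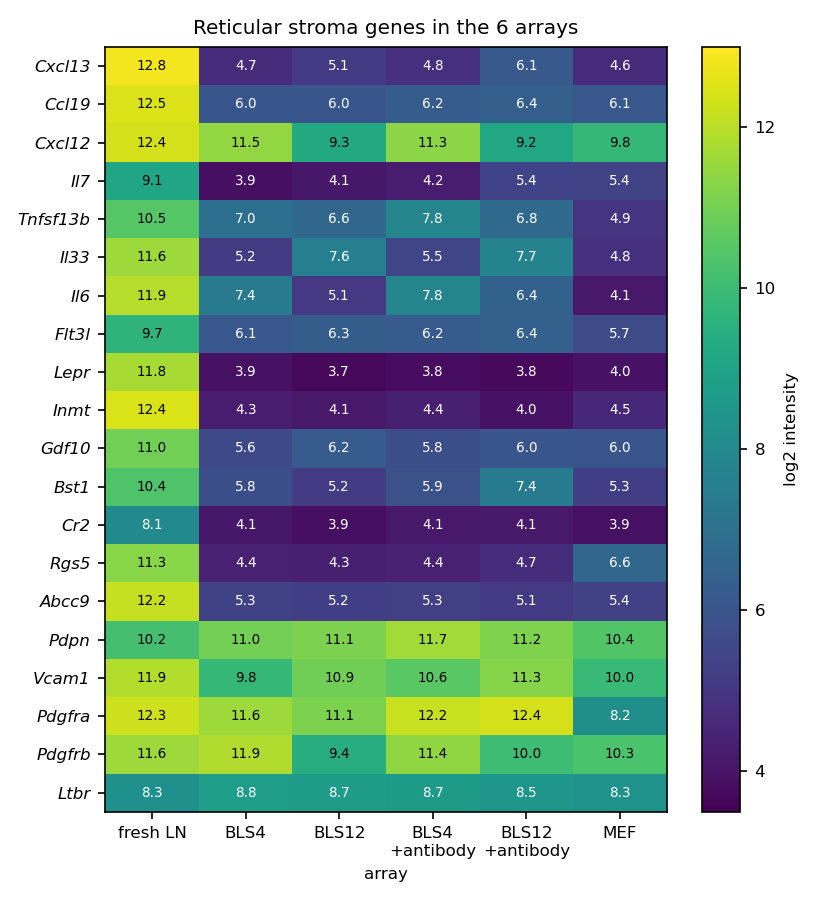
Log2 intensity (colour and number) of 20 genes of reticular stroma (rows) in the 6 arrays (columns). Chemokine, cytokine and subset genes are high in the fresh column and lower in the others, Cxcl12 least so, whereas Pdpn, Vcam1, Pdgfra, Pdgfrb and Ltbr are above the array median in all 6 columns.

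Genes that mark subsets of reticular cells in LN had 28 of 28 measured members kept, 22 of them at least 2-fold higher and 0 lower, with a median difference of 3.71 log2 units. A shorter list of general reticular stroma markers, which holds the sort markers, Ltbr and fibril collagens, had 3 of 11 kept members at least 2-fold higher, 2 below both lines and a median difference of 0.96. The subset list shares Ccl19, Il7, Cxcl12 and others with those above. Besides Inmt, Lepr and Ccl19, the leading member was Penk, which encodes the precursor of enkephalins, at 10.24 against 4.27 and 3.96. The list had a median level of 10.43 in fresh stroma, 6.18 in BLS4, 5.82 in BLS12 and 5.87 in MEF. Of genes known from follicular dendritic or marginal reticular cells 10 of 14 kept members were at least 2-fold higher and 0 at least 2-fold lower (median difference 2.49 log2 units). Cr2, the complement receptor CD21 of follicular dendritic cells and B cells, had 8.06 against 4.1 and 3.87, Bst1, the surface enzyme CD157, 10.37 against 5.77 and 5.17, and C4b, complement C4, 12.37 against 7.78 and 6.3. Cr2 is also in the B cell list above. Among stromal surface and adhesion molecules 7 of 26 kept members were at least 2-fold higher and 1 at least 2-fold lower (median difference 0.52 log2 units). Lower members were no more frequent here than among all kept genes (4.25%). Icam1, a ligand of leukocyte integrins, had 10.49 against 6.66 and 8.38 and Itga8, an integrin chain of mesenchyme, 8.23 against 5.29 and 4.62, while Ncam1, the neural cell adhesion molecule, was the 1 lower member at 6.99 against 9.42 and 9.71. Pdgfrb had 11.62 against 11.87 and 9.43, so fresh stroma lay below BLS4 and above BLS12.

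Pericyte genes stood with the reticular genes. Of the list 7 of 13 kept members were at least 2-fold higher and 0 at least 2-fold lower (median difference 2.94 log2 units). Rgs5, a regulator of G protein signalling known from pericytes, had log2 levels of 11.3 against 4.37 and 4.32. Abcc9 and Kcnj8, the subunits of a potassium channel of vascular mural cells, had 12.18 against 5.34 and 5.25 and 10.08 against 6.08 and 5.9. Notch3, a receptor that mural cells use, had 9.85 against 6.44 and 6.09. Of the shorter marker list of smooth muscle and pericytes 4 of 8 kept members were at least 2-fold higher and 0 at least 2-fold lower (median difference 1.1 log2 units). Contractile genes were divided, with 4 of 21 kept members were at least 2-fold higher and 3 at least 2-fold lower (median difference -0.4 log2 units). Des, the intermediate filament desmin, had 11.12 against 5.51 and 5.21, Myh11, smooth muscle myosin, 9.54 against 5.88 and 5.82, and Synpo2 9.36 against 6.06 and 5.25. The members on the other side were the calponins Cnn1 at 6.15 against 7.88 and 7.52 and Cnn2 at 9.52 against 11.54 and 11.34, and Vcl, vinculin of focal adhesions, at 9.95 against 11.2 and 11.15. Acta2, α smooth muscle actin, was high in all 3 arrays (11.32 against 12.14 and 12.13).

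Immediate early genes, which respond within minutes to growth factors and stress, were higher in fresh stroma almost throughout. Of 36 kept members of 37 measured, 33 were at least 2-fold higher, 25 at least 4-fold and 0 lower, and all 36 lay above both lines. The median difference was 2.82 log2 units. The AP-1 subunit Fosb had log2 levels of 13.29 against 6.25 and 5.81, Fos 12.48 against 7.27 and 6.46, and Atf3, a stress-induced factor of the same dimer family, 12.53 against 6.36 and 6.64. Nr4a1, an orphan nuclear receptor, had 13.19 against 8.23 and 6.96. These levels were low in MEF too, the list median being 7.49 there, 7.72 in BLS4, 7.55 in BLS12 and 10.89 in fresh stroma. Of heat shock genes 5 of 15 kept members were at least 2-fold higher and 1 at least 2-fold lower (median difference 0.52 log2 units). At any size 10 of them lay above both lines and 5 below. Over all kept genes 7.03% were 2-fold higher and 4.25% lower. Hspa1a, the inducible HSP70, had 11.54 against 7.49 and 7.17, its cochaperone Dnajb1 12.24 against 8.35 and 8.72 and Bag3 10.32 against 8.87 and 8.82, whereas Hspb8 was lower at 8 against 9.62 and 9.06. Enzymatic digestion and sorting went with the fresh array only, and their part in these levels was not tested. Without the immediate early and heat shock lists 424 genes were 4-fold higher and 73 lower.

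The promoters of immediate early genes were searched for the cAMP response element, TGACGTCA, which is its own reverse complement and binds CREB and ATF factors. Promoter sequences are RefSeq's, from 250 bases before to 50 bases after the gene start, in GRCm38.p6. The element was present in 4 of 39 promoters of 29 kept members (10.3%), and in 1.79% of all 32851 promoters. The pair of carriers with the largest differences is shown with the element in capitals, Btg2, an antiproliferative gene, at chr1:134079106-134079405, minus strand, and Ppp1r15a, the stress-induced phosphatase subunit GADD34, at chr7:45526219-45526518, minus strand. Their log2 levels were 11.73 against 7.21 and 7.71 and 10.72 against 7.33 and 7.15.
Btg2 promoter: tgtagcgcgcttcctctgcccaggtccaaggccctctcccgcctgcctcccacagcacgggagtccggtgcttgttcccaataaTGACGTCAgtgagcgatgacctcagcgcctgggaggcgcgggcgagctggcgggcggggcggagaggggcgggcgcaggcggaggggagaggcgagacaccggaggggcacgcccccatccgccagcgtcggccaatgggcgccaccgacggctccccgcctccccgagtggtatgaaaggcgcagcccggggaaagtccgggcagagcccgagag
Ppp1r15a promoter: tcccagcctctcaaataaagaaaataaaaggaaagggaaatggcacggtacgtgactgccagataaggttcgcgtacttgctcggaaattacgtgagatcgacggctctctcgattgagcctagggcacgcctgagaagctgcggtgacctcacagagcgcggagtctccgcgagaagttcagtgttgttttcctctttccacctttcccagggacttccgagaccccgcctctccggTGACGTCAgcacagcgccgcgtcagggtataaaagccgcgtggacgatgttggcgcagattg
The element begins at position -166 in Btg2 and at -12 in Ppp1r15a, counted from the gene start. A match is a string of letters and does not show that a factor binds.

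**Figure D4:**
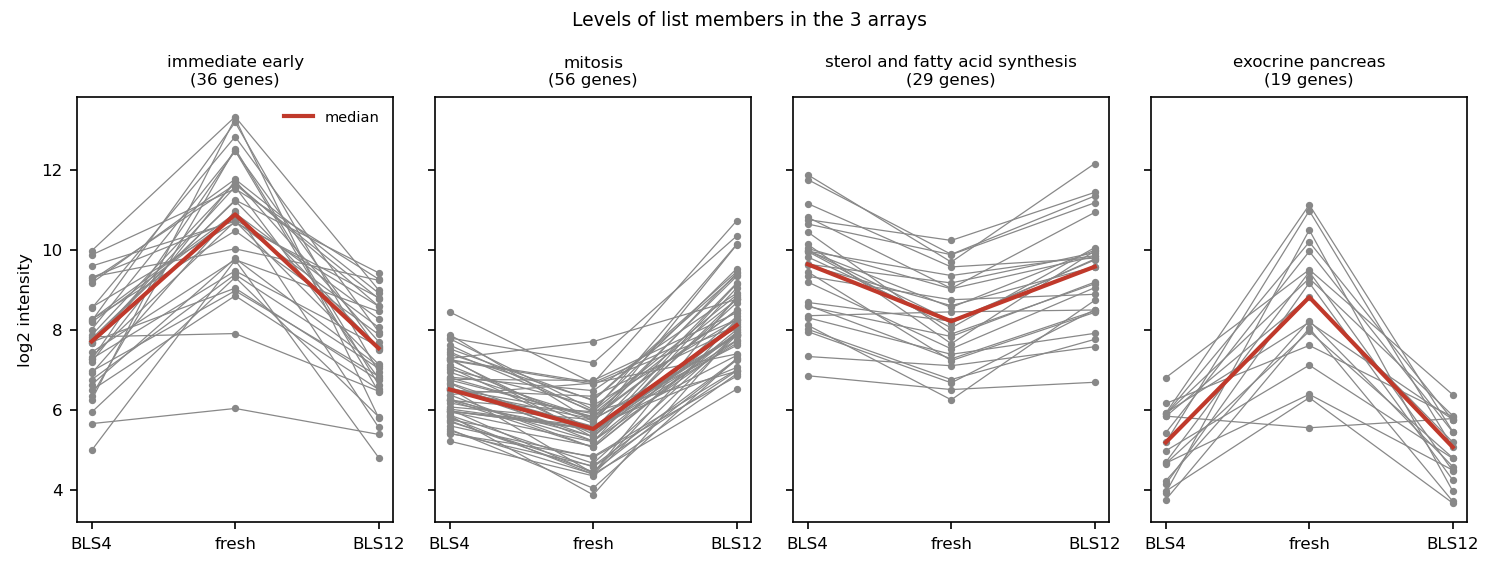
Log2 intensity (y axis) of each kept member (grey lines) of 4 gene lists in BLS4, fresh LN stroma and BLS12, with the list median in red. Immediate early and exocrine pancreas genes peak in the fresh array, sterol genes dip there, and mitosis genes are lowest there and highest in BLS12.

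Inflammatory genes were the next group with many higher members. Of inflammatory chemokines 10 of 17 kept members were at least 2-fold higher and 0 at least 2-fold lower (median difference 2.26 log2 units). Cxcl10, an interferon-induced attractant of T cells, had log2 levels of 13 against 5.75 and 5.56 and Cxcl9, from the same locus, 9.01 against 5.3 and 5.24. Cxcl1 and Cxcl2, neutrophil attractants, had 12.62 against 7.64 and 7.98 and 10.45 against 4.59 and 4.73. In the NF-κB and LTβR pathway 10 of 25 kept members were at least 2-fold higher and 0 at least 2-fold lower (median difference 0.8 log2 units). All 4 leading members restrain or modulate NF-κB: Nfkbiz at 11.65 against 6.9 and 6.94, Tnfaip3 at 11.53 against 6.82 and 7.22, Nfkbia at 12.83 against 8.35 and 8.62 and Nfkbie at 9.69 against 6.38 and 6.37. In the antibody-treated lines Nfkbia stood at 10.59 and 10.38 and Nfkbie at 9.2 and 9.41, between the unstimulated and the fresh level.

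Among interferon-stimulated genes 15 of 34 kept members were at least 2-fold higher and 0 at least 2-fold lower (median difference 0.85 log2 units). The leading members were the GTPases Iigp1 at log2 levels of 9.62 against 5.83 and 4.78, Gbp5 at 7.52 against 4.24 and 3.89 and Gbp7 at 9.4 against 6.15 and 5.31, and the membrane protein Ifitm1 at 9.56 against 5.87 and 5.8. In antigen presentation 11 of 22 kept members were at least 2-fold higher and 0 at least 2-fold lower (median difference 1.1 log2 units). H2-Q4, a nonclassical class I gene, had 10.64 against 5.54 and 6.01. The class II genes H2-Aa and H2-Ab1 had 7.24 against 3.84 and 3.62 and 8.74 against 5.39 and 4.9, and the invariant chain Cd74 8.19 against 4.92 and 4.42, so the class II genes were below the array median in both lines. Class II genes are also carried by B cells and myeloid cells, whose markers are given above. Of complement genes 8 of 15 kept members were at least 2-fold higher and 0 at least 2-fold lower (median difference 1.93 log2 units). C7, C4b, Cfb, which is factor B of the alternative pathway (11.6 against 6.59 and 6.05), and C4a (10.07 against 6.39 and 5.43) led the list. C4a and C4b are near-identical copies, and their probe sets may share signal.

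Matrix genes set the fresh stroma apart in part of each family. Of small leucine-rich proteoglycans 5 of 13 kept members were at least 2-fold higher and 0 at least 2-fold lower (median difference 1.84 log2 units). Beside Lum these were Ecm2 at log2 levels of 10.52 against 4.24 and 3.87, Aspn, asporin, at 9.88 against 7.13 and 4.73, and Podn, podocan, at 10.04 against 7.3 and 7.51. Of collagens 6 of 43 kept members were at least 2-fold higher and 3 at least 2-fold lower (median difference 0.36 log2 units). At any size 31 collagens lay above both lines and 4 below. Over all kept genes 7.03% were 2-fold higher and 4.25% lower. Col14a1, which decorates collagen fibrils, had 12.07 against 6.09 and 5.47, and Col6a4, Col15a1 and Col6a6 had 9.28 against 6.09 and 5.95, 9.18 against 6.35 and 6.14 and 9.56 against 7.08 and 6.69. On the other side Col8a1 had 6.13 against 9.03 and 9.97, Col12a1 8.36 against 11.9 and 10.38 and Col4a5 6.65 against 8.31 and 8.76. The main fibril collagens were high everywhere, Col1a1 at 13.23 against 12.74 and 12.83 and Col3a1 at 12.94 against 11.57 and 12.56. Among elastic and basement membrane proteins 10 of 30 kept members were at least 2-fold higher and 1 at least 2-fold lower (median difference 0.93 log2 units). The lower share did not exceed the 4.25% of all kept genes. Ltbp4, a binding protein of latent TGF-β, had 10.75 against 6.14 and 6.62, Eln, elastin, 9.64 against 6.38 and 6.52, and Fbln2, fibulin-2, was lower at 10.81 against 12.86 and 12.09.

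Of matricellular proteins 9 of 18 kept members were at least 2-fold higher and 0 at least 2-fold lower (median difference 1.35 log2 units). Vtn, vitronectin, had log2 levels of 11.95 against 5.63 and 5.75, Spon1, spondin-1, 10.7 against 5.55 and 5.35, Tgfbi 11.69 against 7.24 and 5.82 and Sparcl1 11.98 against 8.98 and 5.57, the last with BLS4 above BLS12. Of matrix proteases and inhibitors 8 of 32 kept members were at least 2-fold higher and 1 at least 2-fold lower (median difference -0.11 log2 units). Serping1, the C1 inhibitor, had 13.4 against 9.48 and 10.68, Ctss, a lysosomal cysteine protease, 7.69 against 5.2 and 4.77, and Mmp3, stromelysin-1, 12.06 against 6.82 and 9.98. Lox, which cross-links collagen and elastin, was the 1 lower member at 9.3 against 12.56 and 11.34. With 1 of 32, lower members were no more frequent here than among all kept genes (4.25%). The median of this protease list changed sign between the lines, at -0.32 against BLS4 and 0.36 against BLS12.

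**Figure D5:**
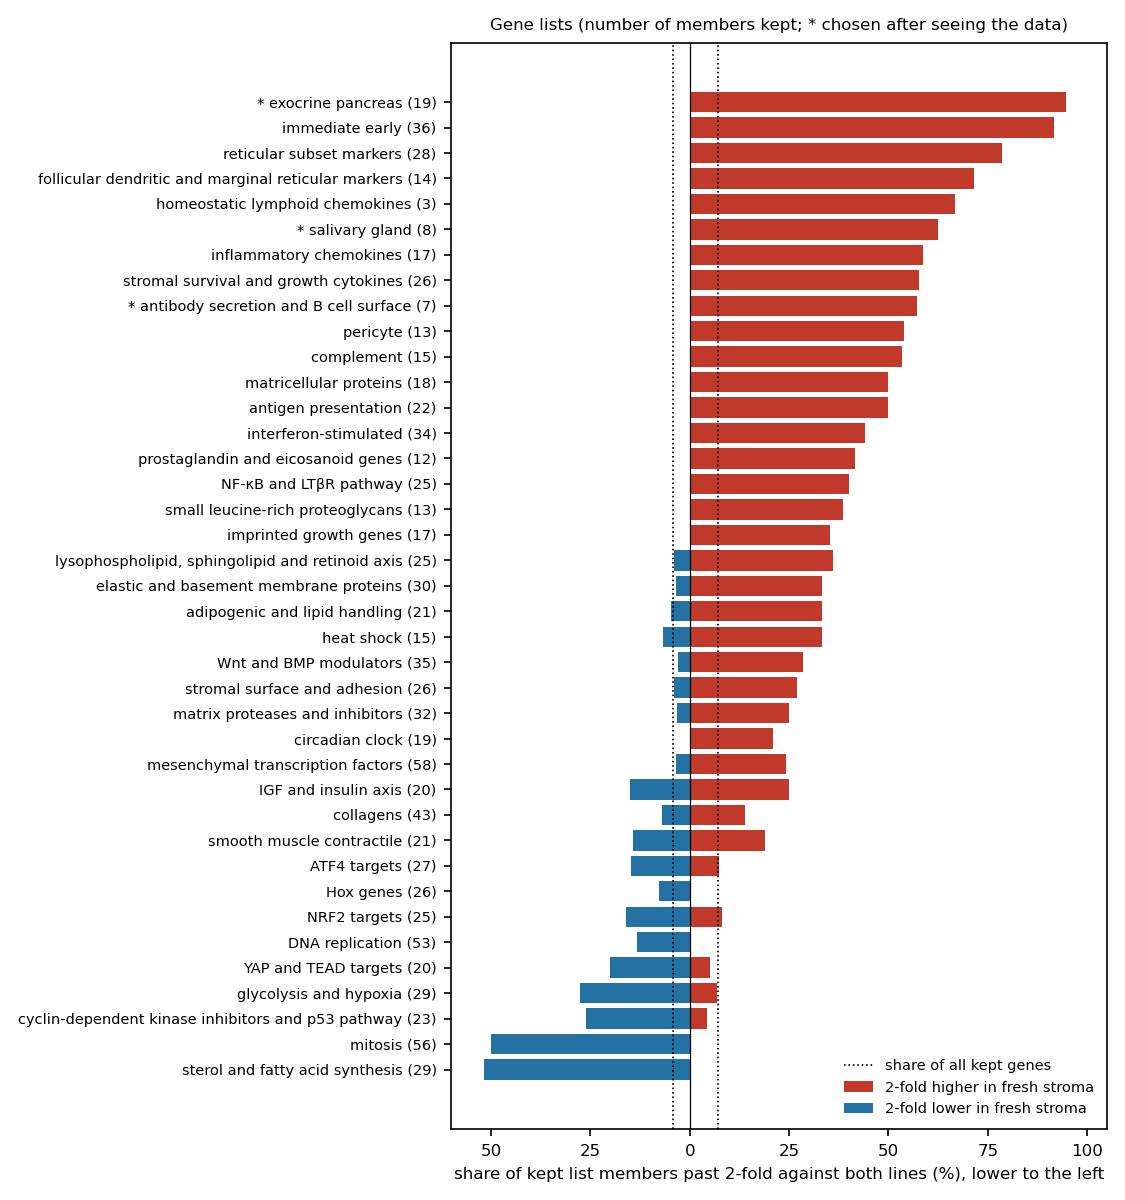
Share of the kept members of each gene list (rows, number kept in parentheses) that were at least 2-fold higher (red, to the right) or lower (blue, to the left) in fresh stroma against both lines, in percent, with dotted lines at the shares of all kept genes, 7.03% and 4.25%. Exocrine pancreas, immediate early and reticular lists lead on the right, sterol synthesis and mitosis on the left. Lists marked with an asterisk were drawn up after their values were seen, and the others with earlier results of these data known.

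Transcription factors of mesenchyme differed in single members. Of this list 14 of 58 kept members were at least 2-fold higher and 2 at least 2-fold lower (median difference 0.19 log2 units). Over all kept genes 7.03% were higher and 4.25% lower by that rule, so lower members were no more frequent here than among all kept genes. The homeobox genes Meox2 and Meox1 had log2 levels of 9.96 against 4.43 and 4.3 and 7.34 against 4.74 and 4.72, Lhx8 had 8.72 against 5.23 and 5.54, and Tcf21, a factor of visceral fibroblasts, 7.33 against 4.98 and 4.94. Foxf2 was lower at 6.2 against 7.57 and 9.2 and Irx5 at 6.34 against 7.35 and 7.99. Hox genes had 0 of 26 kept members were at least 2-fold higher and 2 at least 2-fold lower (median difference -0.14 log2 units). Hoxc13 was the largest difference among them, at 4.76 against 7.29 and 6.92, followed by Hoxb7 at 6.56 against 7.91 and 7.88. Among clock genes 4 of 19 kept members were at least 2-fold higher and 0 at least 2-fold lower (median difference 0.25 log2 units). Per1, a core repressor of the clock and also an immediate early gene, had 9.39 against 6.76 and 7.04, Nfil3 10.27 against 8.19 and 8.27, Arntl, which encodes BMAL1, 8.21 against 6.5 and 6.87, and Bhlhe40 10.23 against 8.74 and 8.89. The E-box CACGTG, the site of BMAL1 and its partner, is its own reverse complement and was present in 6 of 24 promoters of 16 kept clock genes (25%), and in 7.15% of all promoters. It is shown in capitals in the Per1 promoter (chr11:69098699-69098998, plus strand), where it begins at position -166.
Per1 promoter: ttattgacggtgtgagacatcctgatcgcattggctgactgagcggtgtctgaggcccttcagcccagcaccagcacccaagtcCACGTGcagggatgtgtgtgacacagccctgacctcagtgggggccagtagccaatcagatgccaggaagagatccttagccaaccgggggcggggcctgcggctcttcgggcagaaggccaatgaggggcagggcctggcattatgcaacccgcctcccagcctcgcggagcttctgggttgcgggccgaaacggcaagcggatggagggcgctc

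Growth regulators had more higher than lower members at 2-fold in each list, and the IGF axis held most of the lower ones. Of imprinted growth genes 6 of 17 kept members were at least 2-fold higher and 0 at least 2-fold lower (median difference 0.49 log2 units). Grb10, an inhibitor of insulin receptor signalling, had log2 levels of 9.57 against 5.13 and 5.05 and 11.1 in MEF, and Mest 7.74 against 5.6 and 4.61 and 10.17 in MEF. In the IGF axis 5 of 20 kept members were at least 2-fold higher and 3 at least 2-fold lower (median difference 0.34 log2 units). The binding proteins Igfbp5 and Igfbp3 had 12.2 against 6.58 and 6.77 and 12.36 against 7.55 and 9.07, and the protease Htra1 12.24 against 8.62 and 5.75. The oncofetal genes lay on the other side, Igf2bp3 at 4.56 against 7.9 and 8.08, Igf2bp1 at 5.14 against 6.49 and 6.63 and Hmga2 at 6.04 against 7.81 and 7.13, with MEF at 8.41, 8.8 and 10.39. Among modulators of Wnt and BMP 10 of 35 kept members were at least 2-fold higher and 1 at least 2-fold lower (median difference 0.88 log2 units). The lower share did not exceed the 4.25% of all kept genes. Chrdl1, a BMP antagonist, had 11.63 against 5.71 and 5.61, Sfrp4 9.66 against 4.52 and 6.24, and Sfrp1, a Wnt antagonist, was lower at 9.05 against 13.04 and 10.75.

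Of genes of lysophospholipid, sphingolipid and retinoid handling 9 of 25 kept members were at least 2-fold higher and 1 at least 2-fold lower (median difference 0.83 log2 units). Rarres2, the chemoattractant chemerin, had log2 levels of 11.18 against 6.28 and 5.58, Spns2, the exporter of sphingosine-1-phosphate, 9.69 against 6.17 and 5.69, and Sgpl1, the lyase that degrades it, was lower at 9.96 against 11.38 and 11.07. Of prostaglandin and eicosanoid genes 5 of 12 kept members were at least 2-fold higher and 0 at least 2-fold lower (median difference 1.02 log2 units). Hpgd, which inactivates prostaglandins, had 9.22 against 4.29 and 4.37, and Ptgs2, the inducible cyclooxygenase, 13.21 against 9 and 9.26. Of adipogenic and lipid handling genes 7 of 21 kept members were at least 2-fold higher and 1 at least 2-fold lower (median difference 0.88 log2 units). Apoe, apolipoprotein E, had 13.96 against 9.8 and 8.17, Adh1, an alcohol dehydrogenase that also acts on retinol, 12.25 against 6.35 and 9.02, and Fabp5, a fatty acid binding protein, was lower at 5.67 against 7.25 and 7.8. With 1 lower member each, the lysophospholipid and adipogenic lists lay near the 4.25% lower among all kept genes.

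Genes higher in the lines included surface molecules and enzymes. Cemip, a protein that breaks down hyaluronan, had log2 levels of 6.42 in fresh stroma, 11.12 in BLS4 and 10.97 in BLS12, a 23.5-fold difference from the nearer line and the largest of the 73. S100a4, a calcium-binding protein of motile fibroblasts, had 7.84 against 11.47 and 11.25, Met, the receptor of hepatocyte growth factor, 5.69 against 8.78 and 9.89, and F2r, the thrombin receptor, 7.64 against 11.12 and 10.78. Igf2bp3 is given above. The others were Ctla2a, an inhibitor of cysteine proteases (4.93 against 8.77 and 9.55), the kinesin Kif26b (4.93 against 8.33 and 8.32), the fucosidase Fuca2 (6.39 against 9.74 and 9.7), the coactivator Eya4 (5.73 against 8.92 and 9.13) and the aldo-keto reductase Akr1c14 (4.86 against 8.04 and 10.26). St3gal5, which makes the ganglioside GM3, had 7.04 against 10.42 and 10.2, Scg2, a granule protein, 5.68 against 10.3 and 8.84, and the kinase Frk 5.92 against 9.02 and 9.17.

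For Ifi202b, H60b and Scg2, all among the 15, the MEF array lay nearer to fresh stroma than to either line. Ifi202b, an interferon-inducible DNA-binding protein, had log2 levels of 3.94 against 8.02 and 8.24, and MEF, which are C57BL/6JJcl like the fresh stroma, had 3.64. H60b, a ligand of the receptor NKG2D on natural killer cells, had 3.29 against 7.43 and 8.98, and MEF 5.11, between fresh stroma and the lines. Scg2 stood at 5.81 in MEF. Of the 73 lower genes 50 were also at least 4-fold lower than in MEF, a count that rests on the same fresh array as the 73. Strain and culture cannot be told apart for the genes as a whole.

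Mitosis genes were lower in fresh stroma, more so against BLS12. Of 56 kept members 28 were at least 2-fold lower against both lines, 2 at least 4-fold and 0 higher, and 54 lay below both lines. The median difference was -0.99 log2 units from BLS4 and -2.75 from BLS12. The 2 past 4-fold were the kinesin Kif20a of the central spindle, at log2 levels of 5.71 against 7.89 and 9.42, and Prc1, which bundles its microtubules, at 4.42 against 6.54 and 8.83. The checkpoint kinase Bub1 had 3.88 against 5.87 and 7.95, and Spc25 of the kinetochore 5.32 against 7.29 and 8.77. The list's median level was 5.53 in fresh stroma, below its array median, 6.52 in BLS4, 8.12 in BLS12 and 7.90 in MEF.

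Promoters of mitosis genes are known to carry CCAAT boxes, bound by NF-Y, and cell cycle homology regions, bound by the MuvB complex. CCAAT or its reverse complement ATTGG was present in 36 of 47 promoters of 45 kept members (76.6%), and in 37.4% of all promoters. TTTGAA or TTCAAA was present in 35 of 47 (74.5%), and in 17.9% of all. Prc1 (chr7:80294201-80294500, plus strand) and Spc25 (chr2:69206164-69206463, minus strand) hold both and are shown with these letters in capitals, because they were among the largest differences of the list.
Prc1 promoter: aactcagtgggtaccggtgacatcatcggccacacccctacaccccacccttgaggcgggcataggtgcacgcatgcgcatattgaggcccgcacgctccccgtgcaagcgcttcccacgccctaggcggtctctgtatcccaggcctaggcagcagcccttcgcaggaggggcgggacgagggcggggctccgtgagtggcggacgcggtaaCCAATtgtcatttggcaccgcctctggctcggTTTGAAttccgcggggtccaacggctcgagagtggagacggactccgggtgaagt
Spc25 promoter: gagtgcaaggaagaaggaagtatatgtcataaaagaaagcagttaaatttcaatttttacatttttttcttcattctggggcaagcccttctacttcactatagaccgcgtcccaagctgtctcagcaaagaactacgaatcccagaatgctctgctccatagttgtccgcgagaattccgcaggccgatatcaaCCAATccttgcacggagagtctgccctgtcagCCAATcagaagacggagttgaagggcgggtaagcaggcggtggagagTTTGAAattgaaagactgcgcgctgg
In Prc1 the CCAAT begins at position -37 and the TTTGAA at -5. In Spc25 the CCAAT letters begin at -55 and -23 and the TTTGAA at 24. A match describes the letters of the window only.

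Genes of DNA replication differed mostly from BLS12. Of 53 kept members 7 were at least 2-fold lower against both lines, 0 at least 4-fold and 0 higher, and 35 lay below both lines at any size. The median difference was -0.16 log2 units from BLS4, against -0.08 for all kept genes, and -1.61 from BLS12, against -0.1 for all. E2f1, a driver of S phase, had log2 levels of 6.4 against 8.29 and 8.25, Ccne1, cyclin E1, 6.11 against 7.72 and 8.9, the ribonucleotide reductase subunit Rrm2 6.45 against 7.94 and 8.8, and the chromatin remodeller Hells 5.2 against 6.72 and 9.47. The E2F site TTCCCGC or its reverse complement GCGGGAA was present in 19 of 51 promoters of 43 kept members (37.3%), and in 4.6% of all promoters. It is shown in capitals for Hells (chr19:38930740-38931039, plus strand), where it begins at position -61.
Hells promoter: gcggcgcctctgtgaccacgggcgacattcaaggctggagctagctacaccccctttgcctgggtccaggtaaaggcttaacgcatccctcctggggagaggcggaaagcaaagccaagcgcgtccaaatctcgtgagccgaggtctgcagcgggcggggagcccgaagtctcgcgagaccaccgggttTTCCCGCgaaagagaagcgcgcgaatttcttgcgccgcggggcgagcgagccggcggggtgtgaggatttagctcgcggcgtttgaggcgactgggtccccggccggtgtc
Of inhibitors of cyclin-dependent kinases and p53 pathway genes 1 of 23 kept members were at least 2-fold higher and 6 at least 2-fold lower (median difference -0.7 log2 units). Over all kept genes the shares were 7.03% higher and 4.25% lower, so higher members were no more frequent here than among all kept genes. The p53 target Mdm2 had 7.89 against 9.88 and 9.97, Cdkn2a, which encodes p16 and ARF, 7.03 against 9.24 and 8.93, Ccnd2, cyclin D2, 10.05 against 12.21 and 11.78, and Ccng1 10.01 against 12.13 and 11.69; these 4 include an inhibitor and a driver of the cycle. Cdkn1c, which encodes the inhibitor p57, was the 1 higher member at 7.79 against 6.64 and 6.37.

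Sterol and fatty acid synthesis was lower against both lines to a like extent. Of 29 kept members 15 were at least 2-fold lower, 2 at least 4-fold and 0 higher, and 28 lay below both lines, with a median difference of -1.28 log2 units from BLS4 and -1.26 from BLS12. Past 4-fold were the sterol desaturase Sc5d, at log2 levels of 7.66 against 10.14 and 9.98, and the fatty acid desaturase Scd2 at 9.7 against 11.88 and 12.16. Sqle, squalene epoxidase, had 8.05 against 9.96 and 10.06, and Lss, lanosterol synthase, 6.26 against 8.12 and 8.74. The list's median level was 8.22 in fresh stroma, 9.65 in BLS4, 9.58 in BLS12 and 9.37 in MEF, so fresh stroma was lowest of these 4. In the antibody-treated lines it was 9.45 in BLS4 and 8.8 in BLS12.

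Of glycolysis and hypoxia genes 2 of 29 kept members were at least 2-fold higher and 8 at least 2-fold lower (median difference -0.57 log2 units). Over all kept genes these shares were 7.03% higher and 4.25% lower. The counts of higher members in this list, and in the ATF4, NRF2 and YAP lists below, lay near that 7.03%. The glycolytic enzymes Pfkl and Pgam1 had log2 levels of 7.87 against 10.67 and 10.01 and 8.78 against 11.11 and 10.87, Pdk1, which restrains pyruvate oxidation, 6.33 against 9 and 8.27, and Hif1a 9.88 against 11.83 and 11.57. The higher members were Vegfa, the vascular growth factor, at 11.13 against 9 and 8.25, and the glucose transporter Slc2a3 at 7.73 against 5.6 and 6.29. ATF4 targets, which serve amino acid supply, had 2 of 27 kept members were at least 2-fold higher and 4 at least 2-fold lower (median difference -0.45 log2 units). Asns, asparagine synthetase, had 8 against 10.13 and 10.16, Aldh1l2 5.23 against 7.72 and 7.87, and Slc7a11, the cystine transporter, was higher at 7.59 against 4.41 and 4.53. Slc7a11 is also in the NRF2 list, where 2 of 25 kept members were at least 2-fold higher and 4 at least 2-fold lower (median difference -0.25 log2 units). Hmox1, haem oxygenase-1, had 8.68 against 10.99 and 10.72, and Me1, malic enzyme, 7.43 against 10.76 and 9.63. Of YAP and TEAD targets 1 of 20 kept members were at least 2-fold higher and 4 at least 2-fold lower (median difference -0.53 log2 units), with Ajuba at 6.2 against 7.75 and 8.39 and Rbms3, the higher one, at 10.4 against 9.01 and 8.97.

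The lines stood on opposite sides of fresh stroma for a few genes. In all, 7 genes were at least 4-fold from each line in opposite directions, 4 of them above BLS4 and 3 above BLS12. Against BLS4 alone 577 genes were 4-fold higher and 185 lower, and against BLS12 alone 640 and 341, so the lower genes in particular depended on the line. Against the 4 arrays of the lines together, the antibody-treated ones included, 389 genes were 4-fold higher and 49 lower.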

How the data were processed

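RNA of sorted LN stroma, of the unstimulated lines BLS4 and BLS12, and of 3 reference populations was measured on single-colour whole-transcript arrays, 1 array each. The authors deposited linear intensity values for 35557 transcript clusters. Per the submitters' processing notes, Affymetrix Expression Console 1.1 made them. Which algorithm summarized and normalized the probes, and on which genome build, is not given in the sources used here. These deposited intensities, at least 3.55, were turned into log2 values, and no pseudocount was added. Probe sets were named from GEO's platform annotation: 21789 had 1 gene, 1621 several and 12147 none, and 21698 of the first matched RefSeq by Entrez ID with 0 symbols changed. For 999 genes with several probe sets the one with the highest mean log2 over the 6 arrays was used. Genes were kept where 1 of the 3 arrays reached its median.

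Calls needed 4-fold against each line, and 2-fold calls described 36 gene lists, 11 marker lists and 3 lists drawn up after seeing the data. The members and lists were chosen with earlier results of these data known. Named were the 15 largest in each direction by the smaller difference, the 4 largest past 2-fold in each list and direction, 5 genes with opposite differences and a fixed set of stromal genes. Genes named beyond this rule, including members of marker lists that were not past 2-fold, Btg2 and Ppp1r15a, were chosen after their values were seen. For adjusted p-values limma 3.58.1 in R 4.3.3 (lmFit and eBayes, two-sided, Benjamini-Hochberg at 0.05) was fitted beside the fold rule. On simulated data the limma fit called no changed gene at any size tried, and the fold rule found large changes but also called genes that had not been changed. Arrays carry no counts, and their number limits the precision. Filters, scalings, pseudocount, fold limits and arrays left out were varied.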

Additional observations from a re-analysis of the deposited data

Results flagged for a closer look

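Fresh stroma lay on opposite sides of the 2 lines for 7 genes, and the 5 with the largest smaller difference are given here. The difference between the lines was not tested, and each line had 1 array. Gpm6a, a membrane glycoprotein, had differences of 2.7 log2 units from BLS4 and -4.61 from BLS12, a gap of 7.31. Npy1r, a receptor of neuropeptide Y, had 2.51 and -2.19, a gap of 4.7. On the other side Srpx2 had -2.4 and 3.52 (gap -5.91), Mamdc2 -3.13 and 2.14 (gap -5.27), and Itga11, a collagen-binding integrin chain, -2.14 and 2.69 (gap -4.82). A gap is the BLS12 level minus the BLS4 level on the log2 scale, and all 5 kept their sign after centring, quantile normalization and a pseudocount of 16.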

How the results depend on the processing

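The counts of 451 higher and 73 lower genes became 902 and 545 at 2-fold and 240 and 19 at 8-fold. With the lower side at or above the array median, a setting chosen after seeing the data, they were 166 and 42. Leaving out a line gave 577 to 640 higher and 185 to 341 lower genes, the larger numbers without BLS4. After centring each array on its median they were 422 and 88, after quantile normalization 467 and 70, and with a pseudocount of 16 374 and 54. limma, with 0 calls in either direction, called 59 higher with the 75th percentile filter, 63 higher with a trended robust prior, and 396 higher and 53 lower over all 6 arrays. Further limma fits left out the unstimulated array of a line but kept its antibody-treated array. The gap between the antibody-treated arrays was then the only residual degree of freedom, and the lone arrays were assumed to vary like them. The fit over all 6 arrays called 337 of the 451 and 31 of the 73. Of 46 list medians, that of proteases became 0.0562 after quantile normalization and ranged from -0.322 without BLS12 to 0.356 without BLS4, and that of clock genes from -0.0371 without BLS12 to 0.517 without BLS4. Among marker lists, myeloid became -0.0468 after centring, -0.0448 after quantile normalization and ranged from -0.217 without BLS12 to 0.255 without BLS4. Epithelial ranged from -0.0491 without BLS4 to 0.832 without BLS12. Schwann became -0.0201 after centring and ranged from -0.104 without BLS4 to 0.246 without BLS12. Of 202 named genes only Pdgfrb changed sign, at -0.258 without BLS12 and 2.19 without BLS4. The cause was not tested. No paired analysis was possible because fresh stroma had 1 array, from mice of another strain than the lines.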
